A study of Homo sapiens with 8 samples.

Results

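Genes that ERK signalling switches on and whose products act back on the pathway, or carry its output in the nucleus, were followed across 8 gene expression arrays of 2 human thyroid cell lines. They were the phosphatases DUSP4, DUSP5 and DUSP6, the Sprouty genes SPRY1, SPRY2 and SPRY4, the Spred genes SPRED1 and SPRED2, and the ETS factors ETV4 and ETV5. The 10 genes were chosen with earlier results of these data known. Probes were then taken by gene name: each one that was not a control and bore one of these 10 symbols was used. That gave 12 probes for 10 genes, of 50599 probes and 36337 gene names on the array. SPRY1 and SPRY4 had 2 probes each and every other member had 1.

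The study asked which mRNAs respond to miR-375, a microRNA abundant in medullary thyroid carcinoma, by raising it in one line and blocking it in another. Nthy-ori 3-1, a line of immortalized follicular cells from non-tumoral thyroid, received pre-miR-375, a synthetic miR-375 precursor, or a control, both at 5 nM. TT, a line of medullary carcinoma, the tumor of the calcitonin-producing C cells, received antagomiR-375, an antisense inhibitor, or a control, both at 20 nM. These doses are those of the labels, and the study's methods state higher ones for both agents. The labels call each control CTL only, and they were read as pre-miR-CTL and antagomiR-CTL from the study's methods. RNA was taken 48 h after transfection from 2 samples per group, numbered 1 and 2. Arrays of the same number and line lay on the same slide. Within a line, replicate and slide therefore cannot be told apart. All arrays of a line differed from those of the other line in slide, growth medium and reagent as well, so these cannot be told apart from the line itself. The control RNA of TT had an integrity number of 8 and that of Nthy-ori 3-1 one of 9, which cannot be told apart from the line either. Each group is 1 cell line and 2 arrays, so the p-values concern those arrays only. Between the lines they measure the spread between the arrays of a group. For the treatments they measure the spread between the 2 differences within slides. Both kinds are moderated by a spread pooled over all probes.

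In the ERK pathway, growth factor receptors act through RAS, RAF kinases and MEK to activate the kinase ERK, which then changes transcription. Part of that response is a brake. DUSP proteins remove phosphate from ERK, DUSP6 in the cytoplasm and DUSP4 and DUSP5 in the nucleus. Sprouty proteins act between the receptor and RAF, and Spred proteins bind neurofibromin, which turns RAS off. ETV4 and ETV5 are ETS family transcription factors that activate growth and invasion genes. The mRNAs of these genes are widely used as a readout of ERK output. Thyroid tumors often carry changes in this pathway, and the RET receptor upstream of it is mutated in medullary carcinoma and in the TT line.

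The agent that was raised or blocked is the mature miR-375 strand, shown here from RefSeq (GRCh38.p14, chromosome 2, 219001648 to 219001669, minus strand) with its seed, bases 2 to 8, in capitals.
hsa-miR-375-3p: uUUGUUCGuucggcucgcguga
No probe on the array measured miR-375 itself, so its level in these cells was not analysed here.

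Because 2 of the members are ETS factors, the promoters in the RefSeq table (GRCh38.p14, 250 bases before to 50 after each start) were searched on both strands for the ETS letters CCGGAAG and CAGGAAG, the AP-1 letters TGANTCA and the CRE letters TGACGTCA. The table held 10 promoters of 6 members, namely DUSP6, SPRY4 and SPRED1 with 1 each, SPRY1 and SPRED2 with 2 each and SPRY2 with 3. Either ETS string was in 4 of the 10, in 1 promoter each of SPRY1, SPRY2, SPRED1 and SPRED2, against 21.8% of all 35116 promoters. The ETS windows of these 4 genes are shown on the strand of the gene, with the matched letters, or their reverse complement, in capitals.
SPRED1, chr15:38252809-38252835, plus strand: ccgccgactcCTTCCTGgccggacccc
SPRED2, chr2:65366954-65366980, minus strand: gtgccatttgCTTCCTGggcatttcat
SPRY1, chr4:123398161-123398187, plus strand: cttgggaagcCTTCCTGaaaggatttg
SPRY1, chr4:123398309-123398335, plus strand: ccctccgcagCCGGAAGggggccgcgg
SPRY2, chr13:80339889-80339909, minus strand: agcgCAGGAAGaaagtcatca
The capitals begin at position -17 from the start of SPRED1 and at position -192 from that of SPRED2. In SPRY1 they begin at positions -215 and -67, and in SPRY2 at position -246. AP-1 letters were in 1 of the 10 promoters, of SPRED2, against 7.71% of all, and CRE letters in 0 of the 10, against 1.85%. The windows of DUSP6 and SPRY4, whose levels differed most between the lines, held none of these strings. A match describes the letters in the window and was not tested for binding.

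Values are log2 of the background-subtracted intensity after quantile normalization over the 8 arrays, so that a difference of 1 is a factor of 2. A probe is called well above background where the scanner software marked its spots so. Of the 96 values of the 12 member probes, 92 were well above background, and 10 of the 12 probes were so on all 8 arrays. The arrays had 32071 to 37340 spots well above background and 0 saturated spots. The replicates of Nthy-ori 3-1, each on its own slide, lay further apart than those of TT. Over 22193 probes well above background on all arrays, the median distance between replicates was 0.33 in Nthy-ori 3-1 controls and 0.38 with pre-miR-375. In TT it was 0.17 in controls and 0.14 with antagomiR-375. The cell type markers followed the labels only in part. Nthy-ori 3-1 had the follicular factors PAX8, at 10.68, and FOXE1, at 8.76, while thyroglobulin (TG) was at 4.87 and NKX2-1, TSHR and DIO1 were not well above background. TT had calcitonin (CALCA) at 18.55 and RET at 13.70, and also NKX2-1 at 12.28 and TG at 9.13.

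The largest differences among the members were between the lines. DUSP6, DUSP4, SPRY4 and SPRED1 were higher in TT control cells than in Nthy-ori 3-1 control cells, DUSP5 was lower, and the other 5 members did not pass an adjusted p of 0.05. SPRY4 was 64.0-fold higher at its brighter probe and 3.88-fold at its second probe, which did not pass. DUSP6 was 36.9-fold higher, while the other calls were between 3.30-fold and 4.90-fold. Thus 5 of 10 members were called, 4 higher and 1 lower, where 25.8% of 50584 probes were called (limma, 12.9% higher and 12.8% lower). An unadjusted p under 0.05 was met by 37.6% of probes. The median difference over the members was 1.61, against -0.05 over all probes, and 9 of 10 were above 0. On all 4 TT arrays, whichever the treatment, 8 members lay above all 4 Nthy-ori 3-1 arrays and DUSP5 lay below them. Of 29231 probes well above background in either line, 28.7% lay wholly above and 30.1% wholly below. Beside these members, 8 of the 9 C cell markers on the array were also called higher in TT and 1, GFRA1, lower, and the part of cell type in each difference was not tested. In bulk RNA, a higher level per cell and a larger share of cells with that level cannot be told apart.

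**Figure D1:**
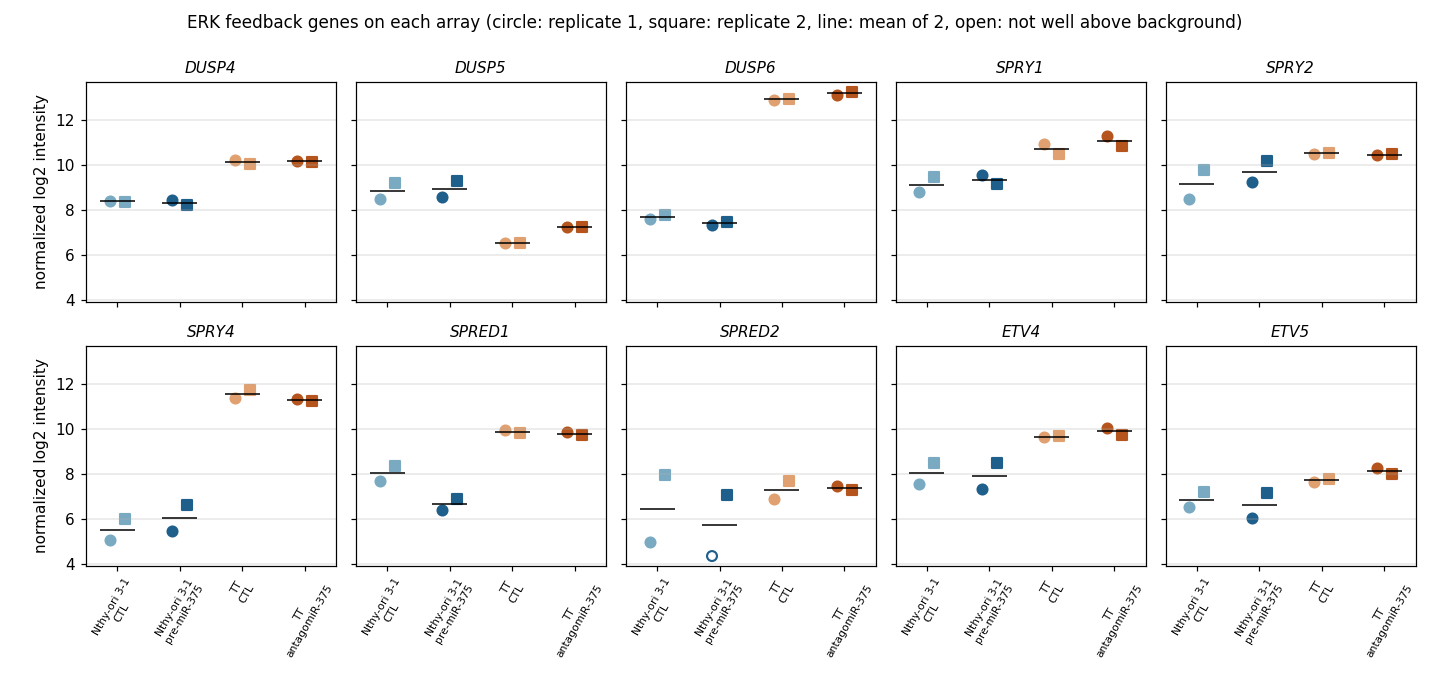
Normalized log2 intensity of the 10 genes on each array (y axis) for the 4 groups (x axis), with replicate 1 as circles, replicate 2 as squares, group means as lines and open symbols for values not well above background. DUSP6 and SPRY4 stand apart between the lines, at 12.87 to 13.23 and 11.25 to 11.73 in TT against 7.34 to 7.78 and 5.07 to 6.64 in Nthy-ori 3-1, while DUSP5 is the one gene that is lower in TT.

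Among the phosphatases, DUSP6, which is specific for ERK, was at 7.60 and 7.78 in Nthy-ori 3-1 controls and at 12.87 and 12.92 in TT controls (probe on chromosome 12, 89742144 to 89742203, minus strand, hg19). The replicates of each line lay within 0.18 of each other and the lines did not overlap. The difference was 5.21 (SE 0.14, 95% interval 4.79 to 5.63, limma adjusted p = 0.00156). DUSP4, which also acts on the stress kinases JNK and p38, was at 8.41 and 8.37 against 10.21 and 10.02 in TT. This was a difference of 1.72 (SE 0.14, 1.29 to 2.15, limma adjusted p = 0.00854). DUSP5, a nuclear phosphatase specific for ERK, ran the other way, at 8.50 and 9.17 in Nthy-ori 3-1 and 6.53 and 6.56 in TT (chromosome 10, 112270900 to 112270959, plus strand, hg19). It was lower in TT by a log2 difference of -2.29 (SE 0.29, -3.17 to -1.42, limma adjusted p = 0.0191). The 3 genes thus differed from one another in direction, with DUSP5 opposite to the pair.

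In the Sprouty family, SPRY4 was at 5.07 and 6.00 in Nthy-ori 3-1 controls and at 11.35 and 11.73 in TT controls (chromosome 5, 141690571 to 141690630, minus strand, hg19). The difference of 6.00 (SE 0.41, 4.75 to 7.26, limma adjusted p = 0.00638) was the largest of any member. Its size depended on the background correction, at 4.68 with the normexp method. The second SPRY4 probe, at 141694487 to 141694546, read 5.90 and 4.79 against 7.19 and 7.40, a difference of 1.95 (limma adjusted p = 0.0679). Both probes were higher in TT, and the size rested on which was read. SPRY1 was at 8.80 and 9.43 against 10.93 and 10.48 (chromosome 4, 124318918 to 124318977, plus strand, hg19), a difference of 1.58 (SE 0.33, 0.59 to 2.58, limma adjusted p = 0.0523). The second SPRY1 probe, at 124324494 to 124324553, was dimmer, at 3.86 and 5.12 against 8.69 and 8.63, and was well above background on only 1 of the 2 Nthy-ori 3-1 control arrays. Its difference was 4.17 (SE 0.51, limma adjusted p = 0.0180). SPRY2 read 8.48 and 9.77 in Nthy-ori 3-1 and 10.47 and 10.53 in TT, a difference of 1.37 (SE 0.52, -0.21 to 2.95, limma adjusted p = 0.172). The TT values of SPRY2 lay above both controls of Nthy-ori 3-1, whose own replicates were 1.29 apart.

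Of the Spred genes, SPRED1 was at 7.71 and 8.37 in Nthy-ori 3-1 and 9.94 and 9.82 in TT (chromosome 15, 38645760 to 38645819, plus strand, hg19). It was higher in TT by 1.85 (SE 0.29, 0.97 to 2.72, limma adjusted p = 0.0296). SPRED2 could not be placed. Its Nthy-ori 3-1 controls read 4.98 and 7.95, on either side of both TT values, 6.90 and 7.68, so the difference of 0.82 had an interval from -2.86 to 4.50 (limma adjusted p = 0.689). The gap of 2.97 between the 2 control arrays was met or passed by 0.0541% of the 22193 bright probes, and the pre-miR-375 arrays of the same slides showed a gap of 2.71. SPRED2 is not one of those bright probes, and its gap was not set against dim probes. In the deposited values its 2 controls lay closer, at 6.61 and 8.41.

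The ETS factors were higher in TT on every array but with p-values above the threshold. ETV4 was at 7.56 and 8.50 in Nthy-ori 3-1 and 9.62 and 9.70 in TT, a difference of 1.63 (SE 0.39, 0.45 to 2.81, limma adjusted p = 0.0704). ETV5 was at 6.52 and 7.18 against 7.66 and 7.77, a difference of 0.86 (SE 0.29, -0.01 to 1.74, limma adjusted p = 0.137). The groups did not overlap for either gene, which held for 75.9% of 30459 probes well above background in 1 of the control groups.

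**Figure D2:**
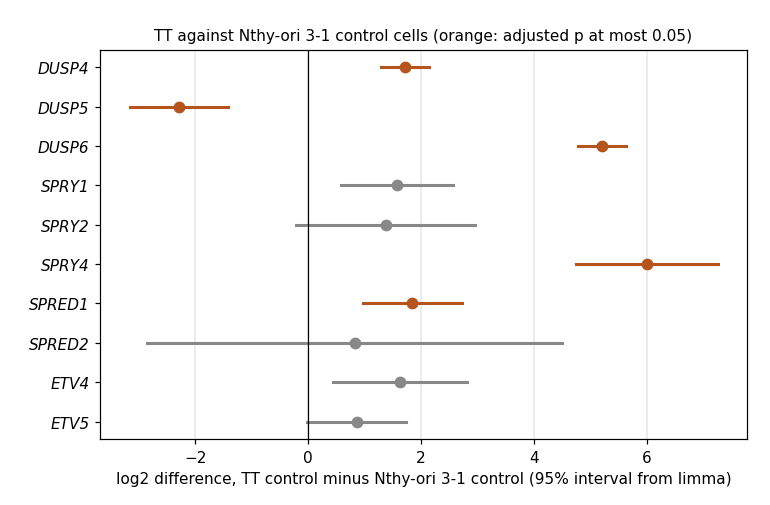
Log2 difference of TT controls minus Nthy-ori 3-1 controls for each gene (x axis), as the limma estimate with its 95% interval, with adjusted p at or under 0.05 in orange. SPRY4 and DUSP6 lie at 6.00 and 5.21, DUSP5 alone lies below 0 at -2.29, and SPRED2 spans 0 from -2.86 to 4.50.

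The number of line calls changed when 1 array was left out. The lone array of a line was then assumed to vary like the pair of the other line. Without TT control array 1 the limma fit called 0 members and 0 probes, and without TT control array 2 it called 1 member, DUSP6, and 1582 probes. Without Nthy-ori 3-1 control array 2 it called more members than the full fit, read here only as a sign that the count is unstable. With the replicate number as a block it called 3 members, with DUSP5 at an adjusted p of 0.0522 and SPRED1 at 0.0759. The differences of DUSP4, DUSP5, DUSP6, SPRY4 and SPRED1 kept their sign in each of the 10 alternative settings, DUSP6 ranging from 4.80 to 5.29, DUSP4 from 1.56 to 1.82 and SPRY4 from 4.68 to 6.47.

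In Nthy-ori 3-1 given pre-miR-375, none of the members passed the test, and SPRED1 had the largest difference. SPRED1 read 7.71 and 8.37 in the controls and 6.40 and 6.91 with pre-miR-375, with no overlap between the groups. It was lower by a log2 difference of -1.31 in pair 1 and -1.45 in pair 2. The fitted difference was -1.38, a factor of 2.61 (SE 0.09, interval -1.79 to -0.97), with an unadjusted p of 0.00468 and a limma adjusted p of 0.318. SPRED2 was also lower within each slide, at 4.98 against 4.37 in pair 1 and 7.95 against 7.08 in pair 2. Its fitted difference was -0.74 (SE 0.12, -1.27 to -0.21, limma adjusted p = 0.318), but -0.40 with normexp and -0.39 with the deposited values, where SPRY2 differed by more, at 0.54 and 0.56. The pre-miR-375 array of pair 1 was not well above background for SPRED2 and the groups overlapped, so the difference can be seen only within slides.

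In this comparison, 0 of 50594 probes passed an adjusted p of 0.05 (limma, 0%), the smallest adjusted p being 0.318, while 14.3% had an unadjusted p under 0.05. Genes were therefore also described by a fold rule, a log2 difference of at least 0.6 in the fit and in both pairs. SPRED1 and SPRED2 were past it, 2 of 10 members lower and 0 higher, where 6.35% of 26318 probes were lower and 5.06% higher. The median difference over the members was -0.09, with 4 above 0 and 6 below, against 0.00156 over all probes. The limma fit called 1 member, SPRED1, with the normexp background correction, with the deposited log2 values or without dim probes. Its limma adjusted p was 0.0343, 0.0465 and 0.0434. Calls over all probes also rose from 0 in these settings (counts in the last section), and the member call was not tested against them. With the 75th percentile, normexp or the deposited values, only 1 member, not 2, was past the fold rule. Beside these values, 7 of the 9 C cell markers were well above background with pre-miR-375 against 2 of 9 in the controls, with 5 of 9 past the fold rule, and the part of that change in the member differences was not tested. The mean of CALCA was at least 3.88-fold higher, at 6.31, far under its level in TT. Its controls were not well above background, and its pairs were unlike, at 4.21 and 0.94.

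The phosphatases differed little with pre-miR-375. DUSP6 read 7.60 and 7.78 in controls and 7.34 and 7.47 with pre-miR-375. It was lower in both pairs and the groups did not overlap, but the difference was only -0.28 (SE 0.08, -0.64 to 0.07, limma adjusted p = 0.389). Non-overlap in the lower direction was met by 2 of 10 members, DUSP6 and SPRED1, and by 18.2% of 26318 probes, and in the higher direction by 0 members and 19.7% of probes. DUSP4 read 8.41 and 8.37 against 8.45 and 8.20, and DUSP5 read 8.50 and 9.17 against 8.57 and 9.29. Their intervals, -0.53 to 0.40 and -0.26 to 0.45, bound the difference within a factor of 2 either way.

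All 3 Sprouty genes had estimates above 0 with pre-miR-375, at their brighter probes. SPRY2 read 8.48 and 9.77 in controls and 9.23 and 10.17 with pre-miR-375, higher by 0.74 and 0.40 within the slides (fit 0.57, -0.06 to 1.20, limma adjusted p = 0.366). SPRY4 read 5.07 and 6.00 against 5.48 and 6.64, higher by 0.41 and 0.64 (fit 0.53, 0.04 to 1.01, limma adjusted p = 0.339). That fit was smaller with normexp, at 0.24, and with the deposited values, at 0.30. Its second probe was also higher in both pairs, by 0.40 and 0.34. For SPRY2 and SPRY4 the gap between replicates, which lay on different slides, exceeded the treatment difference, so the groups overlapped. SPRY1 was not settled. Its brighter probe read 8.80 and 9.43 against 9.54 and 9.14, higher by 0.74 in pair 1 and at -0.29 in pair 2 (limma adjusted p = 0.829). Its dimmer probe read lower in both pairs, opposite to the estimate of the brighter one. That probe was well above background on control array 2 alone, at 5.12, and on neither pre-miR-375 array, so no fold is given.

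ETV4 read 7.56 and 8.50 in controls and 7.35 and 8.47 with pre-miR-375, a difference of -0.12 (-0.55 to 0.31, limma adjusted p = 0.637). ETV5 read 6.52 and 7.18 against 6.07 and 7.16, a difference of -0.24 (-0.97 to 0.49, limma adjusted p = 0.612). Both ETS factors were slightly lower within each slide, by less than the distance between the replicates.

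**Figure D3:**
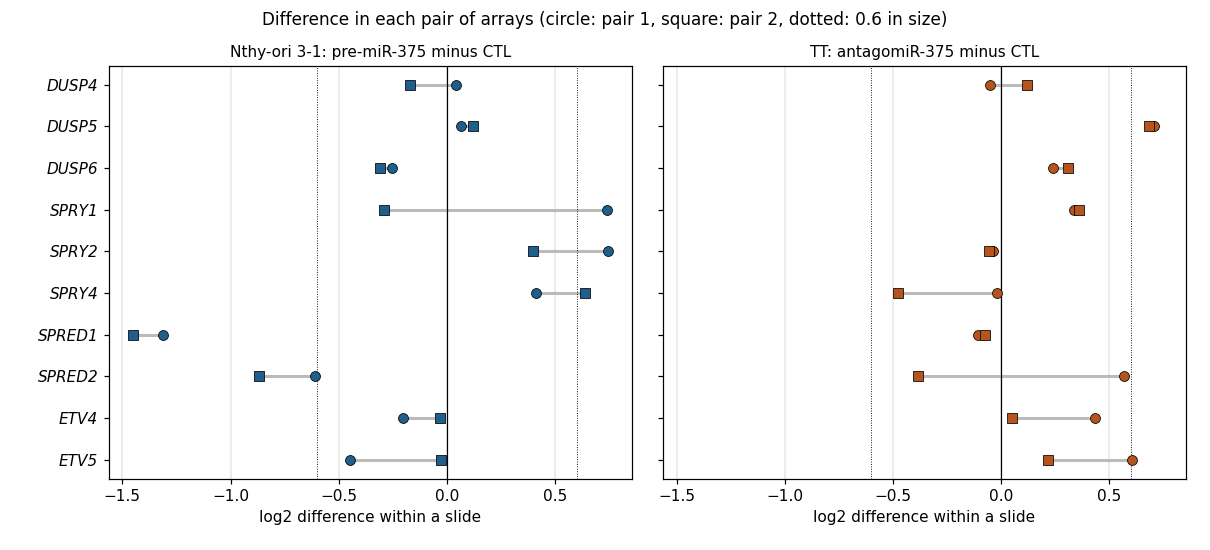
Log2 difference between treated and control array within each slide (x axis) for each gene, in Nthy-ori 3-1 (left) and TT (right), with pair 1 as circles, pair 2 as squares and dotted lines at 0.6 in size. SPRED1 (-1.31 and -1.45) and SPRED2 (-0.61 and -0.87) lie past the left line in Nthy-ori 3-1, and DUSP5 (0.71 and 0.68) is the one gene past a line in both pairs in TT.

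With antagomiR-375 in TT cells, DUSP5 was the member that differed most. It read 6.53 and 6.56 in the controls and 7.24 on both antagomiR-375 arrays, so the groups lay well apart and the replicates close together. The difference was 0.69, a factor of 1.62 (SE 0.08, 0.36 to 1.03), with an unadjusted p of 0.0115 and a limma adjusted p of 0.512. No probe passed here either: 0 of 50587 had an adjusted p of 0.05 or less (limma, 0%, smallest 0.512), and 9.73% had an unadjusted p under 0.05. DUSP5 alone was past the fold rule, 1 of 10 members higher and 0 lower, where 2.35% of 29141 probes were higher and 1.52% lower. With the normexp correction or the deposited values 0 members were past it, and the lowest difference of DUSP5 over the alternatives was 0.42. The RNA of the controls had an integrity number of 8 and that of the treated cells 9 on both arrays, and this cannot be told apart from the treatment.

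No other brake was past the fold rule in TT. DUSP6 read 12.87 and 12.92 in controls and 13.11 and 13.23 with antagomiR-375, a difference of 0.27 with no overlap (SE 0.09, -0.08 to 0.62, limma adjusted p = 0.527). SPRY1 was higher by 0.34 and 0.36 in the pairs, from 10.93 and 10.48 to 11.27 and 10.84 (fit 0.35, 0.01 to 0.68, limma adjusted p = 0.512). Its dimmer probe was higher by 0.39 and 0.26. DUSP4 read 10.21 and 10.02 against 10.16 and 10.13, a difference of 0.03 with an interval from -0.37 to 0.44.

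SPRY2, at 10.47 and 10.53 against 10.43 and 10.47, differed by -0.05 (-0.38 to 0.29). SPRED1, at 9.94 and 9.82 against 9.84 and 9.74, differed by -0.09 (-0.43 to 0.25, limma adjusted p = 0.713). The interval for SPRED1 in TT did not reach 1.38, the size of its difference with pre-miR-375. Line, agent and dose all differed between these comparisons, and no probe on the array measured miR-375. Why the comparisons gave unlike values for SPRED1 was not tested. SPRY4 read 11.35 and 11.73 against 11.33 and 11.25, a difference of -0.25 (-0.97 to 0.47) with -0.02 in pair 1 and -0.48 in pair 2. SPRED2, at 6.90 and 7.68 against 7.46 and 7.29, was at 0.57 in pair 1 and -0.38 in pair 2, with an interval from -1.27 to 1.46.

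ETV5 read 7.66 and 7.77 in TT controls and 8.27 and 7.98 with antagomiR-375. It was higher by 0.61 and 0.22, a fitted 0.41 (SE 0.16, -0.23 to 1.05, limma adjusted p = 0.556). ETV4 read 9.62 and 9.70 against 10.06 and 9.75, higher by 0.43 and 0.05 (fit 0.24, limma adjusted p = 0.681). Neither ETS factor overlapped between the groups. In all, the arrays of 4 members lay wholly above the controls (DUSP5, DUSP6, ETV4 and ETV5) and those of 1, SPRY4, wholly below, against 21.7% and 23.4% of 29141 probes. The members' median was 0.17, with 7 above 0 and 3 below, against 0.000667 over all probes.

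Ordered by level, the 4 groups ran alike for most members. For DUSP6, both TT groups were far above both Nthy-ori 3-1 groups, and neighbours within a line were 0.27 and 0.28 apart. For DUSP4, SPRY1, SPRY2, SPRY4, SPRED1, ETV4 and ETV5, both TT groups also came first. No treated group passed against its control in the reported fit, which called no probe at all and so does not show that the groups are alike. SPRED1 had the widest step within a line, from a mean of 8.04 in controls to 6.66 with pre-miR-375 (SD 0.47 and 0.37, n = 2 each). For DUSP5, the order was Nthy-ori 3-1 with pre-miR-375 at 8.93 and control at 8.84, then TT with antagomiR-375 at 7.24 and control at 6.54. For SPRED2 the means ran from 7.38 and 7.29 in TT to 6.46 and 5.72 in Nthy-ori 3-1, all within the spread of the Nthy-ori 3-1 arrays. The line comparison and each treatment comparison share control arrays, so an error in a control enters both.

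Over the 8 arrays, the genes whose levels ran most like DUSP6, of 22186 bright probes, were HOXB4 and LOC100506110, both with Pearson's r of 0.999. For SPRY4 they were LOC100506930 and TMEM179B, also at 0.999, and for ETV5 FEM1A (0.987) and NFYA (0.986). These values are dominated by the split into 2 lines that all points share, and are a description of these arrays.

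Further lists of pathway genes were set beside the members, on the same fits. Of 23 genes of the cascade itself, 3 were higher and 2 lower in TT controls at an adjusted p of 0.05 or less in limma, with a median difference of -0.01, where 25.8% of all probes were called. The rises with the largest size were the adaptor SHC1, by 2.67, and the RAS activator SOS2, by 1.36, and the falls were NRAS, at -1.96, and HRAS, at -0.77. Of 17 relatives of the members, 2 were higher, the ETS factor ETV1 by 4.06 and the phosphatase DUSP16 by 1.07. One relative, the ETS factor ELK3, was lower at -3.95, and the list median was -0.59. ELK3 was well above background on 1 of the 2 TT control arrays.

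Of 24 other transcriptional outputs of ERK, 2 were higher in TT, the neuroendocrine peptide precursor VGF by 2.92 and the cytokine GDF15 by 2.38. Another 11 were lower, where 12.9% of all probes were called higher and 12.8% lower. EPHA4, among the lower ones, was well above background on 1 Nthy-ori 3-1 control array and on 0 TT control arrays. The 2 with the largest falls were the cytokine IL11, at 11.19 in Nthy-ori 3-1 controls, not well above background in TT and at least 192-fold lower there, and the AP-1 subunit FOSL1, from 10.96 to 4.55. The list median was -1.34, while that of the members was 1.61. Of the outputs 5 were above 0 and 19 below, and of the members 9 above and 1, DUSP5, below. The difference between the lists was not tested.

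With pre-miR-375, 0 genes of these lists passed the adjusted p, and the fold rule left 1 cascade gene higher and 2 lower, 1 relative higher and 2 lower, and 2 outputs higher and 6 lower. Over all 26318 probes, 5.06% were past the rule higher and 6.35% lower. In the cascade these were KSR1, a scaffold, higher at 0.89, and MAP2K1, which encodes MEK1, and RASA1, a RAS inhibitor, at -1.26 and -0.78. KSR1 was not well above background in the controls and was higher by 0.62 in pair 1 and 1.17 in pair 2. MAP2K2, which encodes MEK2, was at 0.01. Among relatives, those past the rule were ETV1, at 1.86, and ETS2 and ELK3, at -1.26 and -1.13. Among outputs VGF, at 1.81, and IL11, at 0.82, were higher, and FOSL1, at -1.68, and MYC, at -1.43, were the furthest below. The outputs had a median of -0.47. FOSL1 read a mean of 10.96 in controls and 9.28 with pre-miR-375.

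With antagomiR-375, 2 outputs were past the fold rule and both were higher, FOS by 1.60 and MAFF by 0.81, both of them transcription factor genes of the immediate early kind, where 2.35% of 29141 probes were past it higher. No cascade gene or relative was. The median was 0.35 over the outputs, 0.14 over the relatives and 0.00146 over the cascade. The members' median of 0.17 lay between those of the cascade and the outputs.

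**Figure D4:**
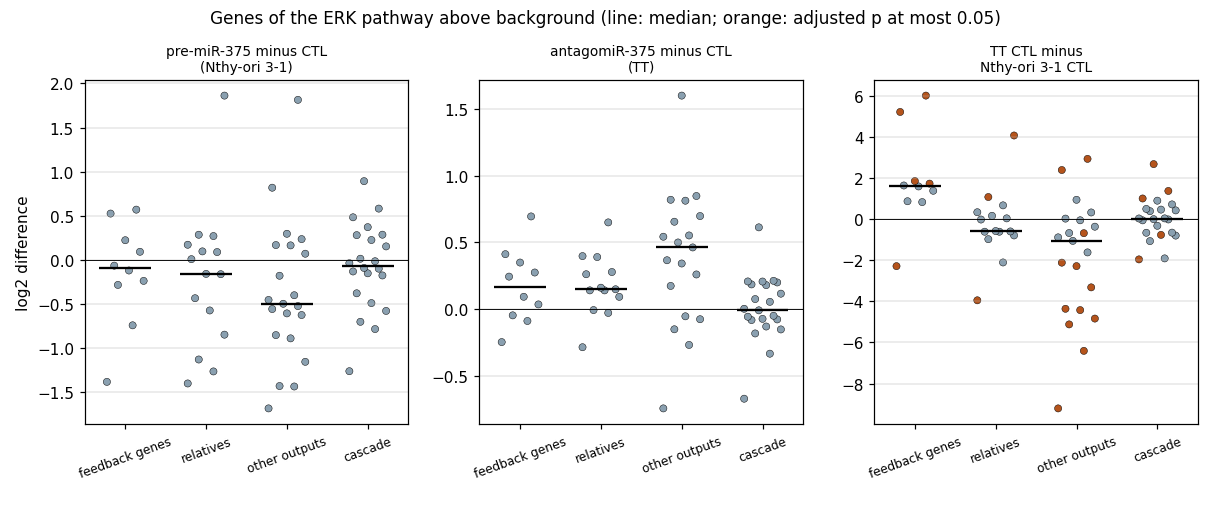
Log2 difference (y axis) of each gene well above background, for the 10 feedback genes, their relatives, other ERK outputs and the cascade (x axis), in the 3 comparisons, with medians as lines and adjusted p at or under 0.05 in orange. Between the lines the feedback genes have a median of 1.61 and the outputs one of -1.06, and with either agent no point is orange.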

How the data were processed

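Members, lists and tests were chosen with earlier results of these data known. Per the labels, Cy3-labelled RNA (0.2 µg) was hybridized to 1-colour Agilent arrays with 62976 spots. The authors deposited Feature Extraction 10.10.1.1 files, with background-subtracted processed intensity for each spot, and a table of log2 values normalized within each line, which was an alternative here. Processed intensity was converted to log2, outlier spots (341 to 428 per array) were left out, replicate spots (10 each for 902 probes) were averaged, and quantile normalization ran over the 8 arrays (limma 3.58.1, R 4.3.3). Each comparison was fitted with lmFit and eBayes, treatments with the slide as a block, the lines without, and Benjamini-Hochberg adjustment over all probes. The labels' replicate numbers pair the arrays of a line, which share a slide. The replicate differences of the paired groups correlated at 0.80 in Nthy-ori 3-1 and 0.35 in TT, over 22193 probes. The prior degrees of freedom were 0.994, 1.13 and 1.26. A gene was represented by its brightest probe, and all members were named. In each list the genes past the adjusted p with the 2 largest rises and falls were named, or those past the fold rule. Alternatives changed the block, the arrays fitted together, normalization, background correction, dim probes and the variance prior, or left out arrays. The steps were tested on simulated data. Exact permutation of 2 against 2 arrays, without regard to pairs, cannot give a p under 0.333, and permuting within pairs allows fewer arrangements still. Probe positions are hg19 as in the files, and the depth of an array is limited by its signal over background.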

Additional observations from a re-analysis of the deposited data

How the results depend on the processing

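With pre-miR-375, the count of probes called, 0 in the reported fit, was 1560 with normexp, 569 with the deposited log2 values and 999 without dim probes, and the members called went from 0 to 1 in each. The members past the fold rule went from 2 to 1 with the 75th percentile, normexp, the deposited values or a log2 fold of 1, and the probes past it from 3004 to 1667 with normexp, 1828 with the deposited values and 1042 with a fold of 1. With antagomiR-375, the members past it went from 1 to 0 with normexp, the deposited values or a fold of 1, and the probes from 1130 to 254, 288 and 241. Without the replicate block, both treatment comparisons called 0 members and 0 probes, as with it. Between the lines, the replicate block lowered the calls from 13029 to 7259 probes and from 5 to 3 members. Leaving out 1 array gave 0 to 8 members and 0 to 11433 probes there. SPRY1 and ETV4 passed between the lines with the slide as a random block (adjusted p 0.0270 and 0.0320), normexp (0.0140 and 0.0207), dim probes left out (0.0176 and 0.0242) or an intensity trend (0.0331 and 0.0487), and SPRY1 with the 75th percentile (0.0484). Signs turned with pre-miR-375 for SPRY1 (-0.29 without pair 1, 0.74 without pair 2) and DUSP4 (-0.17 and 0.040). With antagomiR-375 they turned for DUSP4 (0.12 without pair 1, -0.049 without pair 2), SPRED2 (-0.38 and 0.57) and SPRY2 (0.0083 with the deposited values). Between the lines the sign turned for SPRED2 (-0.66 without Nthy-ori 3-1 control array 1, 2.31 without array 2). The cause was not tested. All other members kept their sign under each alternative run. Each treatment fit had 2 arrays per group and 1 residual degree of freedom, and dim probes such as SPRED2 and the second SPRY1 probe limit what can be said.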
